A study of Mus musculus with 5 samples.

Results

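ZFP24, also called ZFP191, is a zinc finger transcription factor needed for oligodendrocytes, the glial cells that wrap axons in myelin, to mature from their progenitors. The promoter peaks described here come from chromatin immunoprecipitation sequencing (ChIP-seq) of ZFP24. They are in the peak list of differentiated oligodendrocytes (OLG) and overlap no listed peak of oligodendrocyte progenitor cells (OPC). They were selected on the peak lists themselves, as OLG peaks that shared no base with any OPC peak and whose centre was at most 1 kb from a protein-coding transcription start. The rule found 690 such peaks among 1752 OLG peaks (39.4%), out of 6395 peaks in both lists. They were 690 of the 1498 OLG peaks outside the OPC list and 690 of the 838 OLG promoter peaks. Their absence from the OPC list and their distance to a start were thus fixed by the choice and are given as description.

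The libraries came from wild-type C57BL/6 OLG, from Zfp191-null OLG, from wild-type OPC and from Zfp191-null OPC, all from brains of mice at postnatal day 7, with 1 library of each and a pooled input of all 4 kinds of cells. OPC were purified by immunopanning, and OLG were obtained from them by culture for 5 days in 40 ng/ml triiodothyronine and no PDGF, so that these are cultured cells and not oligodendrocytes taken from the brain. The antibody was directed against ZNF24, the human name of the protein, and the deleted gene in the null cells, Zfp191, is Zfp24 itself. The study's design names the null cells and the input as controls, and their signal was not analysed here. The lists gave positions alone, with no read count or score, so depth is unknown and a weak OPC peak under the calling threshold cannot be told from no peak. With 1 library per group, each test below compares peaks of 2 lists, or of 2 classes within a list, and not replicated conditions, and neighbouring peaks and genes are not independent. Positions also measure no expression, so the labelled cell types could not be checked against their markers.

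Promoters of most mammalian housekeeping and many developmental genes lie in CpG islands, stretches rich in GC in which factors such as those of the SP and KLF families bind GC boxes. The start site sits inside such an island, which often reaches into the first exon and intron. ZFP24 itself is known to bind tandem TCAT repeats, and mice that lack it are severely short of myelin in the central nervous system. Each peak below was described by the sequence around its centre, by its side of the start and by the genes beside it, and was set against 1499 OPC promoter peaks outside the OLG list (OPC-only) and against 148 OLG promoter peaks that shared at least 1 base with an OPC peak (shared).

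A few of the OLG-only promoter peaks show the kinds of sequence found. All sequences are GRCm38 (mm10), are printed from 5′ to 3′ on the strand of the gene, and were taken from the 137 of 690 peaks that held no exon base and could be shown. The first pair were the only OLG-only promoter peaks with a tandem TCAT tract of at least 12 bases, and capitals mark the tract, which reads ATGA on the strand of these genes. One lies upstream of Prss27, a serine protease gene (chr17:24037880-24038100, centre 154 bp upstream of the start), with a tract of 41 bases. A gap of 276 bp separated it from the nearest OPC peak. The other lies upstream of Nfkbie, the gene of an inhibitor of NF-kappa-B (chr17:45555391-45555611, 202 bp upstream), with a tract of 14 bases.
Prss27: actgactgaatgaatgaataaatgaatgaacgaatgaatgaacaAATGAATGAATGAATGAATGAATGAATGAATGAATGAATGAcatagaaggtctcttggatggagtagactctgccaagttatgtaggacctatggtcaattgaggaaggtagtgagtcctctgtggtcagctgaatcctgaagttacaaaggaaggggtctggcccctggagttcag
Nfkbie: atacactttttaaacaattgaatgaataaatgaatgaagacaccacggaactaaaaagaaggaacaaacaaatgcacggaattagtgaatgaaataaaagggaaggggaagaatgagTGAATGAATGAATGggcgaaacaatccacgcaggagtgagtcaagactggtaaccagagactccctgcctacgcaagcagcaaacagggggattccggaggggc

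The next 3 are the peaks with the most GC boxes among those that could be shown, with 3 each, and capitals mark the GC box GGGCGG or its complement CCGCCC. They lie upstream of Cyth3, an exchange factor gene for ARF GTPases (chr5:143622207-143622427, 130 bp upstream), in an intron of Vdac3, a channel gene of the mitochondrial outer membrane (chr8:22593328-22593548, minus strand, 320 bp downstream), and in an intron of Zranb2, a splicing factor gene (chr3:157534525-157534745, 247 bp downstream).
Cyth3: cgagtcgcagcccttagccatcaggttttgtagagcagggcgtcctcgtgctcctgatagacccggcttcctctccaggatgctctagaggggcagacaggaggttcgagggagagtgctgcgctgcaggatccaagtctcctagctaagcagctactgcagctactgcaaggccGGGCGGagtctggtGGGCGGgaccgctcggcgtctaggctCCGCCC
Vdac3: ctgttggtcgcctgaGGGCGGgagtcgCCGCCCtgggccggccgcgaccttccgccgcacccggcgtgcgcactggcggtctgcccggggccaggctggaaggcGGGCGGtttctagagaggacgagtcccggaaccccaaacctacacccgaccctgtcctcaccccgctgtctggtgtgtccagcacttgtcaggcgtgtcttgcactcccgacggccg
Zranb2: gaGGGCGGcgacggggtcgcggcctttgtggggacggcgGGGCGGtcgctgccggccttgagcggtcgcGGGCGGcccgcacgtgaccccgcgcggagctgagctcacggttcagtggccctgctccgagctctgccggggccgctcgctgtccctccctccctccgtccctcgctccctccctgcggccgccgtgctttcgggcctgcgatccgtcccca

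The last lies in an intron of Blm, a DNA helicase gene of recombination repair (chr7:80534238-80534458, minus strand, 650 bp downstream), and held 2 copies of the cyclic AMP response element TGACGTCA, in capitals.
Blm: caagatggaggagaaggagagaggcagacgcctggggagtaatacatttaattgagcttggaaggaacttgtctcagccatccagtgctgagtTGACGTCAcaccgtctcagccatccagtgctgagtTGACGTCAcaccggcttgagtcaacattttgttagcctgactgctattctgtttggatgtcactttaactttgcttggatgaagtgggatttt

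The OLG-only promoter peaks lay mostly downstream of the start. Their centres were downstream in 533 cases, upstream in 156 and exactly at the start in 1. The upstream share was 22.6% (exact Clopper-Pearson 95% interval 19.6 to 26.0), which differed from 50% in a two-sided exact binomial test over peaks (p = 4.58e-49). The median position was 208.5 bp downstream, with quartiles at 24 and 446.8 bp, and the range ran from 949 bp upstream to 996 bp downstream. Within 500 bp downstream lay 394 peaks (57.1%), and within 100 bp on either side 117 (17.0%). The fullest 100 bp bin was that from 100 to 200 bp downstream, with 110 peaks. Downstream peaks lay farther out than upstream ones, with medians of 309 and 218.5 bp.

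GC content is also uneven around starts. Over 41172 protein-coding starts, the 200 bp centred 200 bp upstream had a median GC content of 52.5%, those at the start 59.5% and those 200 bp downstream 59.0%. Among the OLG-only promoter peaks themselves, the 533 downstream ones had a median GC content of 69.5% and the 156 upstream ones 65.2%. Its part in the side was not tested.

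**Figure D1:**
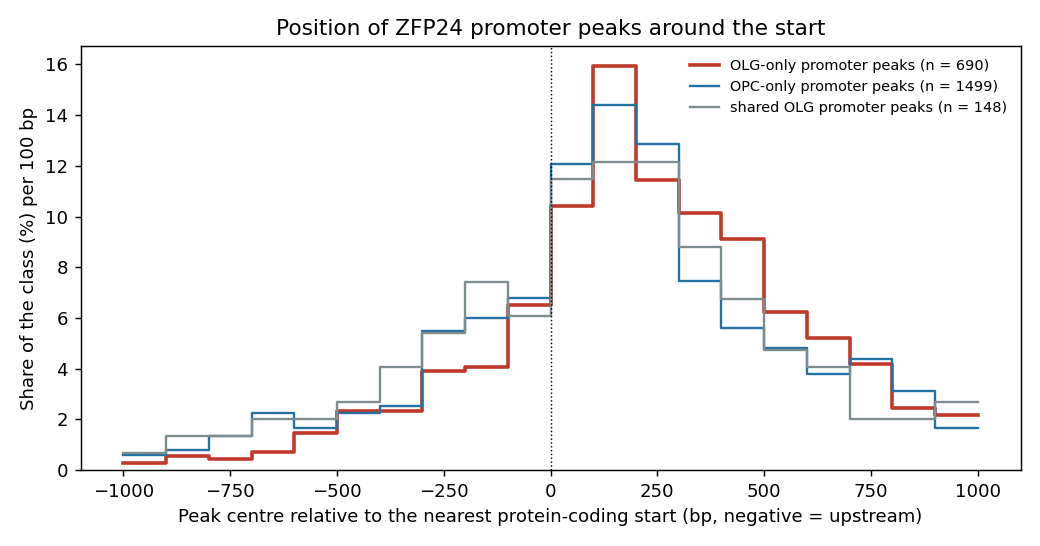
Share of each class of promoter peak per 100 bp of distance from the peak centre to the nearest protein-coding start, with negative distances upstream. The OLG-only promoter peaks (red) reach 15.9% of the class between 100 and 200 bp downstream and lie under the OPC-only (blue) and shared (grey) classes in the bins from 300 to 100 bp upstream.

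The side was more uneven than in the other classes of promoter peak. Upstream centres made up 22.6% of the OLG-only promoter peaks, 29.8% of the OPC-only ones (odds ratio 0.690, 95% interval 0.555 to 0.855, two-sided exact test of Fisher, Benjamini-Hochberg p = 0.00387 over 42 tests) and 33.1% of the shared ones (odds ratio 0.591, 0.396 to 0.889, Benjamini-Hochberg p = 0.0424). All adjusted p-values for features below are from this exact test and over the same 42 tests. The median positions were 208.5 bp downstream for the OLG-only class, 158 bp for OPC-only and 160.5 bp for shared. Both calls were lost when peaks were compared within bins of GC content by the Mantel-Haenszel method, where the odds ratios were 0.953 (adjusted exact conditional p = 1) against OPC-only and 0.625 (0.306) against shared peaks. They were also lost when centres had to lie within 500 bp of the start (adjusted exact p = 0.108 against OPC-only and 0.280 against shared peaks). Within the GC bins the odds ratio against shared peaks changed little, from 0.591 to 0.625. The OLG-only and the shared class both had a median GC content of 68.5%.

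By annotation, the centres of the OLG-only promoter peaks fell in introns in 277 cases (40.1%), in 5′ untranslated regions in 167 (24.2%), in coding exons in 139 (20.1%), outside any transcript in 90 (13.0%), in non-coding exons in 16 and in a 3′ untranslated region in 1. The coding exon share was 20.1% in this class, 16.01% in OPC-only and 18.2% in shared promoter peaks, and neither difference passed (adjusted exact p = 0.0623 and 0.774). Starts with an opposite-strand start within 1 kb, the mark of divergent gene pairs, were at 7.39% of the OLG-only peaks, 10.6% of the OPC-only and 10.1% of the shared ones, which did not pass either (adjusted exact p = 0.0612 and 0.551). For 94 peaks (13.6%) the start was an internal one, over 1 kb from the 5′ end of the gene. Chromosome X held 6 of the 690 peaks, at 7 of its 948 genes (0.738%).

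The OLG-only promoter peaks were rich in GC. Their median GC content over the central 200 bp was 68.5%, with quartiles at 63 and 72.5%, and 564 of them (81.7%) were over 60%. The range ran from 37.5% to 80.5%, the highest at Ppp1r12a, a myosin phosphatase subunit gene. The medians were 63.5% in OPC-only and 68.5% in shared promoter peaks. Windows that resembled CpG islands, with a GC content of at least 50% and an observed to expected CpG ratio of at least 0.6, made up 83.6% of the OLG-only class, 70.4% of the OPC-only class (odds ratio 2.14, 1.69 to 2.72, adjusted exact p = 2.23e-10) and 81.8% of the shared class (odds ratio 1.14, 0.688 to 1.84, adjusted exact p = 0.774). Within bins of GC content the odds ratio against OPC-only peaks was 1.00 (adjusted exact conditional p = 1). The definition of these windows uses both GC content and the CpG ratio. Of all starts, 50.1% had such a window at the start and 45.6% at 200 bp downstream. The 2 lists came from different libraries, so library and cell type cannot be told apart in the comparison with OPC-only peaks.

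**Figure D2:**
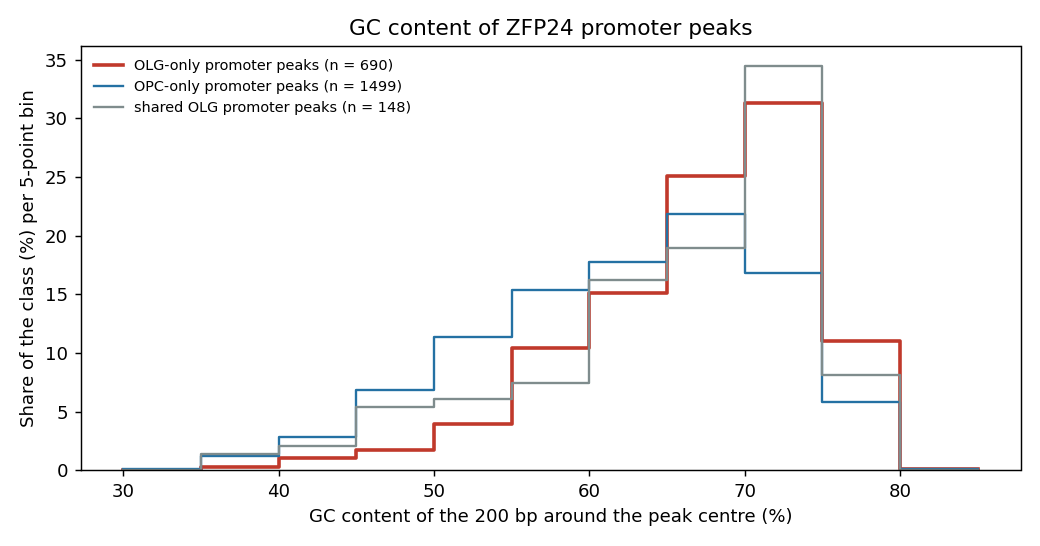
GC content of the central 200 bp of each peak, as the share of each class per bin of 5 percentage points. The OLG-only (red) and shared OLG (grey) promoter peaks share a median of 68.5%, and the OPC-only promoter peaks (blue) have a median of 63.5%.

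Among 15 short motifs searched on both strands of those 200 bp, the GC box GGGCGG set the OLG-only promoter peaks apart from both other classes. It was in 298 of them (43.2%, 39.5 to 47.0), with 1 copy in 191, 2 in 79 and 3 to 5 in the other 28. The share was 31.4% in OPC-only promoter peaks (odds ratio 1.66, 1.37 to 2.01, adjusted exact p = 1.16e-06) and 31.1% in shared ones (odds ratio 1.68, 1.14 to 2.52, adjusted exact p = 0.0424). Of all protein-coding starts, 40.3% held it at the start and 28.4% at 200 bp downstream. Within bins of GC content neither call was kept, at odds ratios of 1.17 (adjusted exact conditional p = 0.612) against OPC-only and 1.64 (0.253) against shared peaks. The odds ratio against shared peaks thus stayed close to the 1.68 found without bins.

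The TCAT repeat was rare in the OLG-only promoter peaks, which was already known of unshared OLG peaks from these same lists when the classes were chosen, so that the values below describe that pattern at promoters and are no independent evidence of it. A tract of at least 12 bases was in 2 of 690 (0.290%, 0.0351 to 1.04), those of Prss27 and Nfkbie shown above. It was in 24 of 1499 OPC-only promoter peaks (1.60%, odds ratio 0.179, 0.0204 to 0.723, adjusted exact p = 0.0424) and in 21 of 148 shared ones (14.2%, odds ratio 0.0177, 0.00199 to 0.0739, adjusted exact p = 3.44e-13). The OLG-only and the shared class come from the same OLG list, and the OPC list decides between them. They also differ in the number in the peak name, whose meaning is not stated. By this number, ranked within each chromosome, 57.8% of the OLG-only and 76.4% of the shared peaks were in the lower 50% of the OLG list. As an alternative, both lists were cut to their lower-numbered peaks and the classes were drawn again. An OLG peak whose OPC partner was cut then counted as OLG-only. The odds ratio against shared peaks was then 0.0266 (adjusted exact p = 5.79e-12). Against shared peaks the call held within bins of GC content (odds ratio 0.00471, adjusted exact conditional p = 9.76e-12), and against OPC-only peaks it did not (0.573, p = 1). The shorter word TCATTCAT was in 6 OLG-only promoter peaks (0.870%), in 2.54% of the OPC-only (odds ratio 0.337, adjusted exact p = 0.0424) and in 14.9% of the shared ones (odds ratio 0.0505, adjusted exact p = 2.10e-11). Within bins of GC content its odds ratio was 0.785 against OPC-only peaks (adjusted exact conditional p = 1) and 0.0437 against shared ones (1.36e-09). Besides Prss27 and Nfkbie, the OLG-only peaks with this word were at Igf1r, Hnrnpdl, Smad7 and Naa15. Over all starts, a tract was at 0.0267% of those windows at the start and 0.0461% at 200 bp downstream, and the word at 0.491% and 0.515%.

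The TATA box TATAAA was in 1.01% of the OLG-only, 2.67% of the OPC-only (odds ratio 0.374, adjusted exact p = 0.0466) and 1.35% of the shared promoter peaks, against 7.20% of all starts. Within bins of GC content the comparison with OPC-only peaks gave an odds ratio of 0.685 (adjusted exact conditional p = 0.873). The remaining 12 motifs did not pass against either class. The ETS core CCGGAAG was in 5.80% of the OLG-only, 5.87% of the OPC-only (odds ratio 0.987, 0.654 to 1.47) and 3.38% of the shared peaks (1.76, 0.677 to 5.81). The CCAAT box, a short word and frequent by chance, was in 10.7%, 14.4% and 11.5% of the OLG-only, OPC-only and shared peaks (adjusted exact p = 0.0612 and 0.876). The SOX word ACAAAG was in 8.12%, 8.87% and 9.46% of the same classes. The cyclic AMP response element was in 5 OLG-only promoter peaks (0.725%, against 0.200% of OPC-only and 0 of 148 shared peaks), at Ddx51, Lrrc8a, Clstn2, Myh10 and Blm, the last of which is shown above. A match is a stretch of letters and not a measured binding site.

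**Figure D3:**
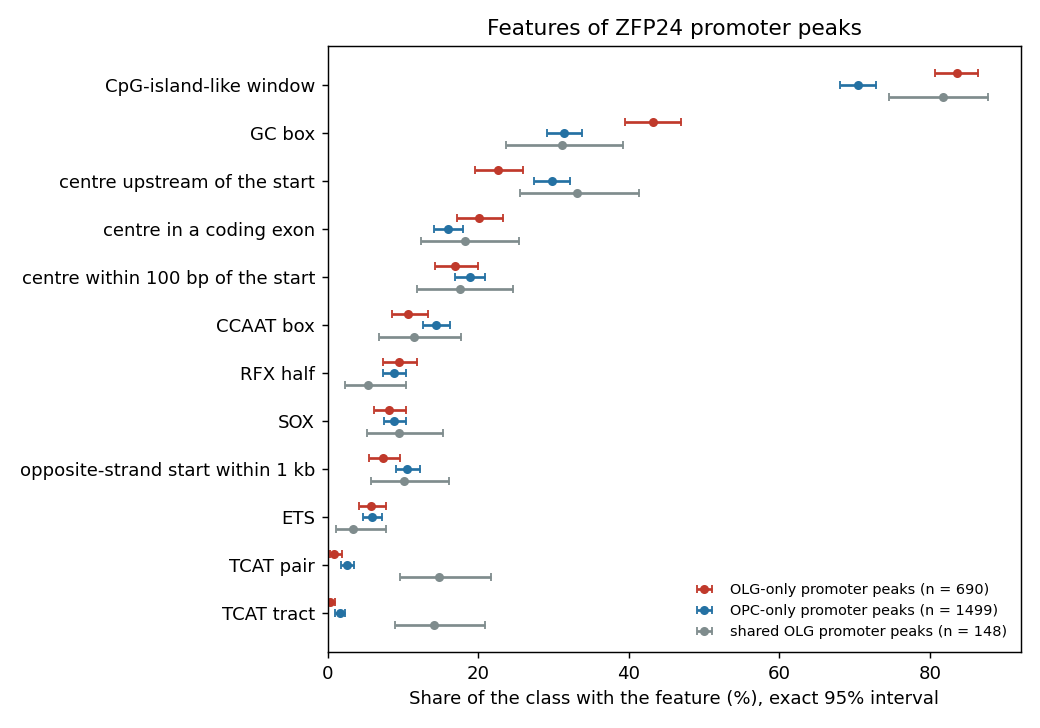
Share of the OLG-only (red, top of each trio), OPC-only (blue) and shared OLG (grey) promoter peaks with each feature, with exact 95% intervals for counting error over peaks. The GC box is at 43.2%, 31.4% and 31.1%, and the TCAT tract at 0.290%, 1.60% and 14.2%.

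The 690 peaks marked 728 genes, since 49 peaks had a start of more than 1 gene within 1 kb. That is 3.36% of the 21679 protein-coding genes, the background for each gene group below, and OPC-only promoter peaks marked 7.51% of them. In all, 185 of the 728 genes (25.4%) were in at least 1 of 41 gene groups, and 5 groups had none. Groups were matched by symbol or symbol pattern, so that a few members are relatives by name, such as Cdc42ep3, a CDC42 effector gene, in the cell cycle group. Shares are given with exact 95% intervals and no test, and the GC content of the groups' own promoters was not compared.

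**Figure D4:**
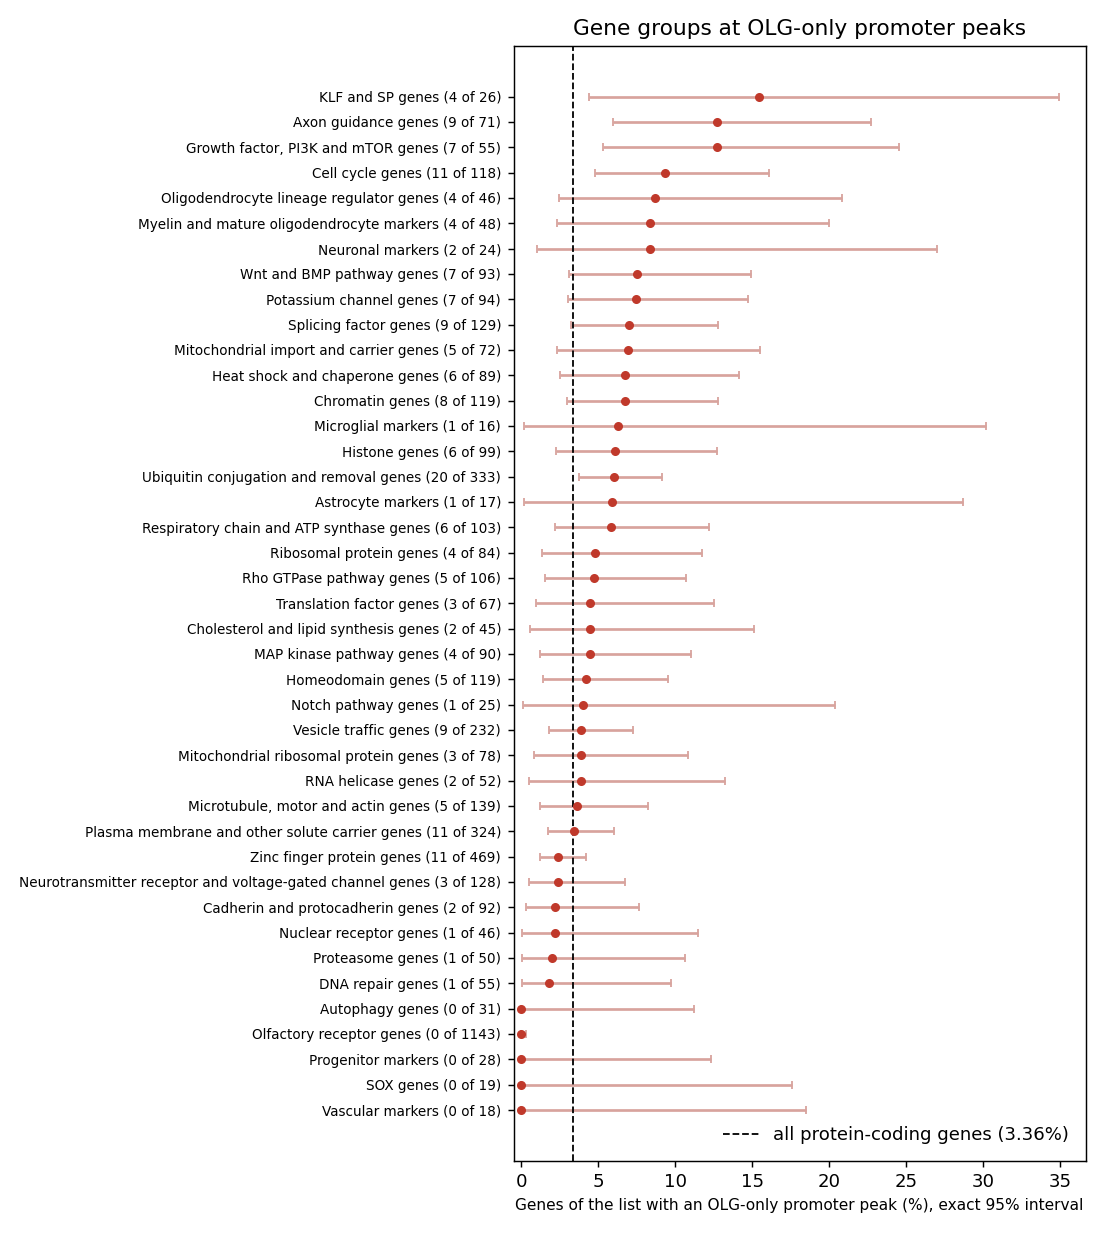
Share of the genes of each group with an OLG-only promoter peak, with exact 95% intervals, ordered by share, with the number of genes marked and in the group in brackets. The dashed line is the 3.36% of all protein-coding genes, and the interval of the olfactory receptor genes, at 0 of 1143, ends below it.

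The closest peaks to a start included those of Fbln1, the gene of the matrix protein fibulin 1, exactly at the start, of Ddx51, an RNA helicase gene, 1 bp upstream, and of Rpl35a, a ribosomal protein gene, 1 bp downstream. Atp1b2, the gene of a sodium pump subunit of glia and neurons, followed at 4 bp downstream, and Lrig1, the gene of a brake on growth factor receptors, at 6 bp upstream. Hoxa5, a homeobox patterning gene, also lay at 6 bp upstream, and Slc5a6, a vitamin transporter gene, at 7 bp upstream. At the other edge of the rule, Arid2 at 996 bp, Cadps at 991 bp and Nkx6-2 at 982 bp were just inside 1 kb, and OLG-only peaks at Meox2 (1003 bp), Socs3 (1011 bp) and Smad6 (1013 bp) were just outside.

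Several genes of the oligodendrocyte lineage were among those marked. Of 48 myelin and mature oligodendrocyte markers, 4 (8.33%, 2.32 to 20.0) had an OLG-only promoter peak. They were Tspan2, a tetraspanin gene of myelin, at 115 bp downstream, Gsn, the gene of the actin-severing protein gelsolin, at 117 bp upstream, Car2, a carbonic anhydrase gene, at 255 bp downstream, and Nkx6-2, a homeodomain factor gene of myelinating cells, at 982 bp downstream. None of the 4 had an OPC peak within 10 kb, the nearest being that of Gsn, 24548 bp upstream. The same held for 582 of all 728 marked genes (79.9%), so it does not set these 4 apart. Of 46 lineage regulators, 4 (8.70%, 2.42 to 20.8) were marked, namely Smarca4, the gene of the BRG1 remodeller, Nfib, a nuclear factor I gene, Zeb2, whose zinc finger product is required for myelin formation, and again Nkx6-2. At Smarca4 the OLG-only peak lay 424 bp upstream and an OPC peak 286 bp downstream. At Zeb2 the OLG-only peak lay 902 bp downstream, and an OPC peak at 311 bp was itself overlapped by another OLG peak, so that this promoter held a shared site and an OLG-only one. The start at Zeb2 was an internal one, 7107 bp from the 5′ end of the gene. At Nfib the OLG-only peak lay 738 bp downstream of an internal start, 200442 bp from the 5′ end of that gene. Of 28 progenitor markers none was marked (0%, which allows up to 12.3%), nor was any of 19 SOX genes (up to 17.6%). OPC-only promoter peaks marked 4 of the progenitor markers (14.3%) and 2 of the SOX genes (10.5%), against 7.51% of all genes. Cspg4, a proteoglycan gene of progenitors, had its nearest OLG peak 11830 bp upstream and its nearest OPC peak farther off, 79687 bp downstream.

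Some markers of other brain cells had such a peak too, with wide intervals on the shares. They were 2 of 24 neuronal markers, Slc17a6, a vesicular glutamate transporter gene, and Rbfox3, the NeuN gene (8.33%, 1.03 to 27.0), Glul, the glutamine synthetase gene, of 17 astrocyte markers (5.88%), Tmem119 of 16 microglial markers (6.25%), and 0 of 18 vascular markers.

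Growth factor, PI3 kinase and mTOR genes had 7 of 55 marked (12.7%, 5.27 to 24.5). Ligands were Vegfa, an angiogenic factor gene, 132 bp downstream, and Bdnf, a neurotrophin gene, 368 bp upstream. Their starts lay 1013 bp (Vegfa) and 19709 bp (Bdnf) from the 5′ end of the gene. Receptors were Fgfr1, for fibroblast growth factors, at 205 bp downstream, Igf1r, for insulin-like growth factors, at 417 bp upstream, and Ntrk2, the BDNF receptor gene TrkB, at 528 bp downstream. Downstream of receptors were Rictor, a subunit gene of mTOR complex 2, at 139 bp, and Fyn, a Src family kinase gene, at 494 bp. Of these, Fgfr1 had an OPC peak 5451 bp upstream of a start and Bdnf had one 3 bp from a start, 371 bp from the OLG-only peak, while the nearest to Vegfa and Rictor were 270289 and 373521 bp away. Pik3r1, which encodes a regulatory PI3 kinase subunit, had a shared peak and no OLG-only one, as did Nefl, a neurofilament gene, and Eef1a1, a translation elongation factor gene.

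Axon guidance genes were marked in 9 of 71 cases (12.7%, 5.96 to 22.7). The nearest were the receptors Robo2 at 46 bp upstream and Robo1 at 146 bp downstream, which bind Slit proteins, and Unc5c, a netrin receptor gene, at 218 bp upstream. The start at Robo1 was an internal one, 354843 bp from the 5′ end of the gene. Ephb1 and Ephb2, ephrin receptor genes, followed at 410 and 443 bp downstream, and Sema7a, a semaphorin gene, at 419 bp downstream. OPC peaks lay within 10 kb at 3 of the 9, among them Ephb1 at 1011 bp and Sema7a at 119 bp downstream. Cell cycle genes had 11 of 118 (9.32%, 4.75 to 16.1), with Anapc5 and Cdc20, a subunit and an activator of the anaphase-promoting complex, at 80 and 137 bp downstream, and Cdc25a, a phosphatase gene that activates cyclin-dependent kinases, at 199 bp downstream. KLF and SP genes, whose products bind GC boxes, had 4 of 26 (15.4%, 4.36 to 34.9), at Klf10, Sp3, Klf13 and Klf14. Their own peaks lay 120, 194, 377 and 572 bp downstream, and none had an OPC peak within 10 kb, like 79.9% of all marked genes.

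Signalling and channel genes followed. Wnt and BMP pathway genes had 7 of 93 (7.53%, 3.08 to 14.9), among them the signal transducer gene Smad3 at 95 bp, the BMP receptor gene Bmpr1b at 161 bp and the Wnt antagonist gene Sfrp1 at 361 bp downstream, with no OPC peak within 10 kb at any of the 7. Potassium channel genes had 7 of 94 (7.45%, 3.05 to 14.7), including the voltage-gated channels Kcnc4 at 46 bp downstream and Kcnd3 with 2 OLG-only peaks, also with no OPC peak within 10 kb at any. Of all 728 marked genes 79.9% had none within 10 kb, so its absence is not particular to either group. The intervals of both groups included the 3.36% background, as did those of the myelin markers and the lineage regulators. OPC-only promoter peaks, which marked 7.51% of all genes, marked 2 of the 94 potassium channel genes (2.13%) and 8.60% of the Wnt and BMP genes. Of the groups above they marked 25.5% of the growth factor, PI3 kinase and mTOR genes, 17.8% of the cell cycle genes, 13.0% of the lineage regulators, 11.5% of the KLF and SP genes, 11.3% of the axon guidance genes and 4.17% of the myelin markers.

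Groups of basic cell functions were marked as well. Ubiquitin genes had 20 of 333 marked (6.01%, 3.71 to 9.12), such as Rnf187 at 31 bp and Ube2d2a at 95 bp downstream. Splicing factor genes had 9 of 129 (6.98%, 3.24 to 12.8), with Hnrnph1 at 55 bp and Rbm39 at 184 bp downstream. Chromatin genes had 8 of 119 (6.72%, 2.95 to 12.8), with the methyltransferase gene Setd7 at 80 bp upstream and the demethylase gene Kdm2a at 190 bp downstream. Chaperone genes had 6 of 89 (6.74%, 2.51 to 14.1), with the chaperonin subunits Cct7 at 18 bp and Cct4 at 95 bp downstream. Mitochondrial import and carrier genes had 5 of 72 (6.94%, 2.29 to 15.5) and ribosomal protein genes 4 of 84 (4.76%, 1.31 to 11.7). Of these groups, only the ubiquitin genes had an interval wholly above the 3.36% background, and the intervals of the others included it. OPC-only promoter peaks marked 10.5% of the ubiquitin, 16.3% of the splicing factor, 14.3% of the chromatin, 7.87% of the chaperone, 4.17% of the mitochondrial import and carrier and 21.4% of the ribosomal protein genes. Shares near or under the background were found for solute carriers (11 of 324, 3.40%), vesicle traffic genes (9 of 232, 3.88%) and zinc finger genes (11 of 469, 2.35%). Autophagy genes had 0 of 31 and olfactory receptor genes 0 of 1143, which allows up to 0.322%. Cholesterol and lipid synthesis, which feeds the myelin membrane, had 2 of 45 (4.44%, 0.543 to 15.1), at Elovl7, a fatty acid elongase gene, and Acly, the gene of ATP citrate lyase.

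Genes with more than 1 OLG-only promoter peak numbered 14. They were Cdc42ep3, Cdk13, Chn2, Cux1, Elf2, Etnk2, Fam120a, Grin2a, Homer1, Kcnd3, Ntng1, Rims2, Skida1 and Wsb1, each with 2. Among them are Grin2a, a glutamate receptor subunit gene, with peaks 52 bp upstream and 732 bp downstream of starts, Homer1, a scaffold protein gene, at 179 and 73 bp upstream, and Rims2, a gene of vesicle release, at 148 bp upstream and 484 bp downstream. These 3 were picked out after their values had been seen. In each of them the 2 distances were read from different starts of the gene, so they cannot be subtracted. The starts at Homer1 were internal ones, 4860 and 5468 bp from the 5′ end of the gene.

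Most genes with an OLG-only promoter peak had no OPC peak nearby. A separate OPC peak was at most 10 kb from a start at 146 of the 728 genes (20.05%, 17.2 to 23.15), against 12.7% of all protein-coding genes, and those 146 were 5.29% of the 2762 genes with such an OPC peak. None was found within 10 kb at 582 genes and within 50 kb at 445 (61.1%). At smaller distances the shares were 11.8% of the marked genes within 1 kb, against 8.21% of all genes, and 14.8% within 2 kb, against 9.19%. Within 50 kb they were 38.9% and 29.2%. The rule removed every OLG peak that met an OPC peak, and GC content differs between the marked and all promoters, as given above, so these shares are a description and the part of GC content in them was not tested.

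Where both kinds of peak were present they were often close. Of the 146 OPC peaks, 136 lay within 10 kb of the OLG-only peak itself, 83 within 1 kb and 45 within 500 bp from centre to centre, and 10 lay farther off beside another start of the gene. The median spacing was 777.5 bp, with quartiles at 404 and 4098.2 bp, and the smallest was 215 bp. The side of each peak was read from its own nearest start of the gene, which can be a different start for each peak. By that reading the OPC peak and the OLG-only peak had opposite sides in 76 of 146 cases (52.1%). How often they flanked the same start was not counted. The OPC peak was upstream of its start in 61 cases (41.8%), and in 12 cases it was overlapped by another OLG peak. The OPC peaks nearest to a start were at Tmem230 and Bdnf, 3 bp downstream, with the OLG-only peaks 388 and 368 bp upstream. At Ppara, the gene of a nuclear receptor for fatty acids, the OLG-only peak lay 412 bp upstream and the OPC peak 14 bp upstream. At Rbm39, a splicing factor gene, the OLG-only peak was 184 bp downstream and the OPC peak 23 bp upstream, and at Vti1b, a vesicle SNARE gene, they were 352 and 84 bp downstream. In these 5 genes the peaks differed by 268 to 610 bp from centre to centre. The gap from the OLG-only peak to the nearest OPC peak was 329 bp at Tmem230, 395 bp at Ppara and 165 bp at Rbm39. At these genes the 2 positions given are therefore from different starts and cannot be subtracted.

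The line between a shared and a separate peak was thin for some. At Sfswap, a splicing regulator gene, the OLG-only peak at 116 bp downstream and an OPC peak at 99 bp upstream touched with a gap of 0 bp. The gaps were 2 bp at Mcub, 7 bp at Abi2 and Anapc5 and 12 bp at Csnk1g3. On the other side of the rule, peaks at Bcl7a, Galnt1 and Klhdc4 overlapped an OPC peak by 1, 17 and 19 bp and were left out. Over all 690 peaks the gap to the nearest OPC peak had a median of 98090 bp, and 23 peaks (3.33%) had one within 100 bp, 63 (9.13%) within 500 bp and 84 (12.2%) within 1 kb.

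**Figure D5:**
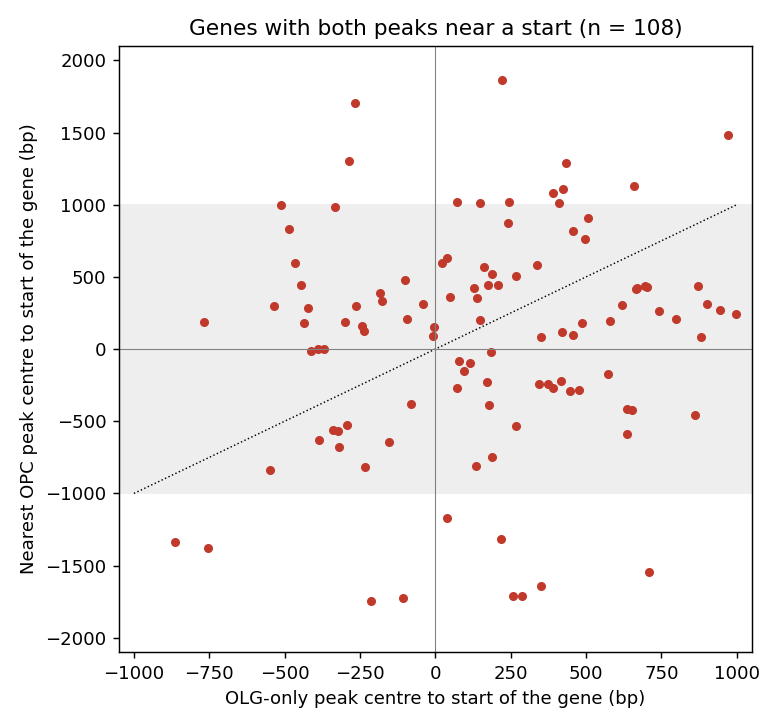
Position of the OLG-only peak centre and of the nearest OPC peak centre, each relative to its nearest start of the gene, at the 108 genes whose OPC peak was at most 2 kb from a start. The dotted line marks equal positions, near which the rule leaves few points, and the grey band marks OPC peaks within 1 kb of a start, which holds 86 of the genes.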

How the data were processed

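ZFP24 ChIP-seq libraries were read as single-end 75 nt reads and aligned to mm10, per the labels' protocols. BWA (version not given) and HOMER 4.8.3 were used per the submitters' processing notes. Not given in the sources used here are the calling options, the threshold and how null and input libraries were used. The authors deposited 2 lists of peak positions (chromosome, start, end and name, in base pairs) with no score or count, 1 for OPC and 1 for OLG, in which all OLG peaks were 221 bp wide and all OPC peaks 209 bp. Depth is unknown, and intervals cover counting error over peaks only.

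Peaks were set against GENCODE M21 basic on GRCm38 (20 chromosomes, 41172 protein-coding starts, 21679 genes, 0 peaks past a chromosome end), with positions 1-based. The nearest start gave the side. Sequence features were read in the central 200 bp. A TCAT tract was a tandem run of the unit over 12 bases or more, starting at any of its letters, on the plus or minus strand. The 21 features were compared with Fisher's exact test (two-sided) against 2 classes, with Benjamini-Hochberg adjustment over 42 tests at a threshold of 0.05, and as an alternative with Mantel-Haenszel odds ratios and the exact conditional test over GC bins of 10 percentage points. Other alternatives changed the distance to the start, the overlap rule, the start set, the window, the tract length and the peak list. Python 3.11.15, numpy 2.4.6, pandas 2.3.3, scipy 1.17.1, statsmodels 0.14.6 and matplotlib 3.10.9 were used, and the steps were tested on simulated data.

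The class of peaks, the gene groups and the motifs were chosen with earlier results of these data known, among them the rarity of the repeat at unshared OLG peaks. Genes were named by rule: the 10 peaks nearest a start, at most 6 per group by distance, tract holders, genes with 2 peaks, the 10 genes whose OPC peak was nearest a start, those at the edges of the rule, and a short list of genes already discussed for these data. Ppp1r12a, Ntrk2 and the genes holding the short TCAT word or the cyclic AMP element were named after their values were seen, and the GC box sequences were chosen by their number of boxes. Some genes that the rule names are left out.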

Additional observations from a re-analysis of the deposited data

How the results depend on the processing

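Across the results 13 other settings were tried, 6 to 11 of them for each result. The share of OLG-only promoter peaks upstream of the start stayed between 20.1% and 25.1% under 6 of them and below 50% by the exact binomial test each time. In 1 setting each list was cut to the lower 50% on each chromosome by the number in the peak name, whose meaning is not stated. The classes were then drawn again, which gave 419 peaks and 442 genes in place of 690 and 728. The features called against OPC-only peaks were 6, with 3 for centres within 500 bp and 0 within bins of GC content, where the exact conditional test gave 0 of 21 at an unadjusted p under 0.05. Against shared peaks the exact conditional test within these bins gave 4 of 21 at an unadjusted p under 0.05. The features called against shared peaks were 4, with 2 for centres within 500 bp and 2 within bins of GC content, these last being the TCAT tract and the TCAT word. Both of these kept their call against shared peaks in 11 of 11 settings, with odds ratios for the tract of 0.00471 to 0.0364. Against OPC-only peaks the call was lost in 9 of 11 settings for the TATA box, 7 for the tract, 6 for the TCAT word, 3 for the side and 1 each for CpG-like windows and the GC box. Against shared peaks it was lost in 5 of 11 for the side and 3 for the GC box. No direction reversed in these settings.

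The share of marked genes with a separate OPC peak, 20.05% within 10 kb, was 14.84% within 2 kb and 38.87% within 50 kb. It was 11.68% when an OPC peak within 500 bp counted as shared, which removes close pairs by construction, and 24.61% when at least 50% of the shorter peak had to overlap, which adds overlapping ones. With the lower-numbered peaks it was 13.12%, where fewer OPC peaks remain. No paired analysis was possible because each group had 1 library. Unknown depth limits every statement on absence from the OPC list.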
